A study of Apera spica-venti with 7 samples.

Results

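Members were the translated transcripts of silky windgrass (Apera spica-venti) whose best homologue is named after an enzyme of fat mobilization, the glyoxylate cycle or sugar breakdown. A transcript was taken when the description of its best homologue had an e-value of at most 0.1 and contained lipase, acyl-CoA oxidase, 3-ketoacyl-CoA thiolase, isocitrate lyase, malate synthase, enolase, hexokinase, phosphofructokinase, pyruvate kinase, pyruvate decarboxylase, alcohol dehydrogenase 1 or phosphoenolpyruvate carboxykinase, and did not contain phospholipase. The 12 names found 579 of the 251792 annotated transcripts in 7 single assemblies, and 149 of 66641 in the assembly of all libraries combined. Members were found for 10 of the 12 names, and no transcript fell into more than 1 family. The 579 members came from 543 contigs and had 120 different best homologues, told apart by UniProt accession, under 39 descriptions.

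The study assembled the transcriptome of this grass weed without a reference genome, from 4 stages of germinating seed and 3 organs. The seeds stood at BBCH 05, when the young root comes out, BBCH 07, when the shoot sheath (the coleoptile) leaves the grain, BBCH 08, when the coleoptile lengthens, and BBCH 09, when it breaks the soil surface. Leaf, root and stem were cut from greenhouse plants at BBCH 34 to 36, during stem elongation, and all plants belonged to a mixture of herbicide-susceptible Danish populations with no treatment. Each condition is 1 assembly of RNA pooled from several individuals, so a value has no replicate. The paper also lists further libraries for leaf and root, which have no values of their own here. Seed against organ also differs in plant age and in the way the tissue was grown, stored and ground. Seeds germinated in petri dishes in a climate cabinet and were kept in RNAlater, while organs came from greenhouse pots and were frozen. The paper reports that RNA of high quality was difficult to extract from germinated seeds.

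Storage fat lies in oil bodies coated with oleosin and caleosin. Lipases release fatty acids from it, and peroxisomes shorten these by beta-oxidation, in which acyl-CoA oxidase takes the first step and 3-ketoacyl-CoA thiolase the last. Isocitrate lyase and malate synthase form the glyoxylate cycle, which spares the carbon that the citric acid cycle would release, and phosphoenolpyruvate carboxykinase then leads that carbon towards sugar. Hexokinase, phosphofructokinase, enolase and pyruvate kinase break sugar down to pyruvate, and pyruvate decarboxylase with alcohol dehydrogenase turns pyruvate into ethanol when oxygen is short. In cereal grains most reserve is starch, while oil lies mainly in the embryo and the aleurone, the living outer layer of the endosperm.

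The values are numbers of assembled transcripts and not expression levels. Read depth was evened out before assembly, the longest isoform of a gene was kept and like contigs were merged, so a highly expressed gene counts no more than a weakly expressed one. In whole tissues, fewer cells of a type and less RNA per cell cannot be told apart, and neither is measured by such a number. Assemblies were compared by the share of members per 10000 annotated transcripts, with 95% Wilson intervals that hold counting error only. The 7 single assemblies held 28412 (leaf) to 40902 (seed BBCH 09) annotated transcripts, so that 1 transcript is worth 0.352 per 10000 in leaf and 0.244 at seed BBCH 09. The 4 seed shares were set against the 3 organ shares by a two-sided exact permutation test over the 35 ways to split 7 assemblies. Its smallest possible p is 0.0571, and no comparison could pass 0.05.

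Seed assemblies held 92 members at BBCH 05, 96 at BBCH 07, 81 at BBCH 08 and 93 at BBCH 09, against 61 in leaf, 89 in root and 67 in stem. Per 10000 annotated transcripts these are 25.4, 24.0, 21.2 and 22.7 for the seed stages and 21.5, 22.9 and 22.9 for leaf, root and stem. The ranges of seed stages and organs overlapped. They also overlapped in each of the 10 families with members, with exact permutation p-values from 0.114 for malate synthase to 1.00 for alcohol dehydrogenase 1. In every family the Wilson intervals of the 7 assemblies shared a common stretch. Such a stretch is not a test of difference, because the intervals are wide in families of few transcripts.

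**Figure D1:**
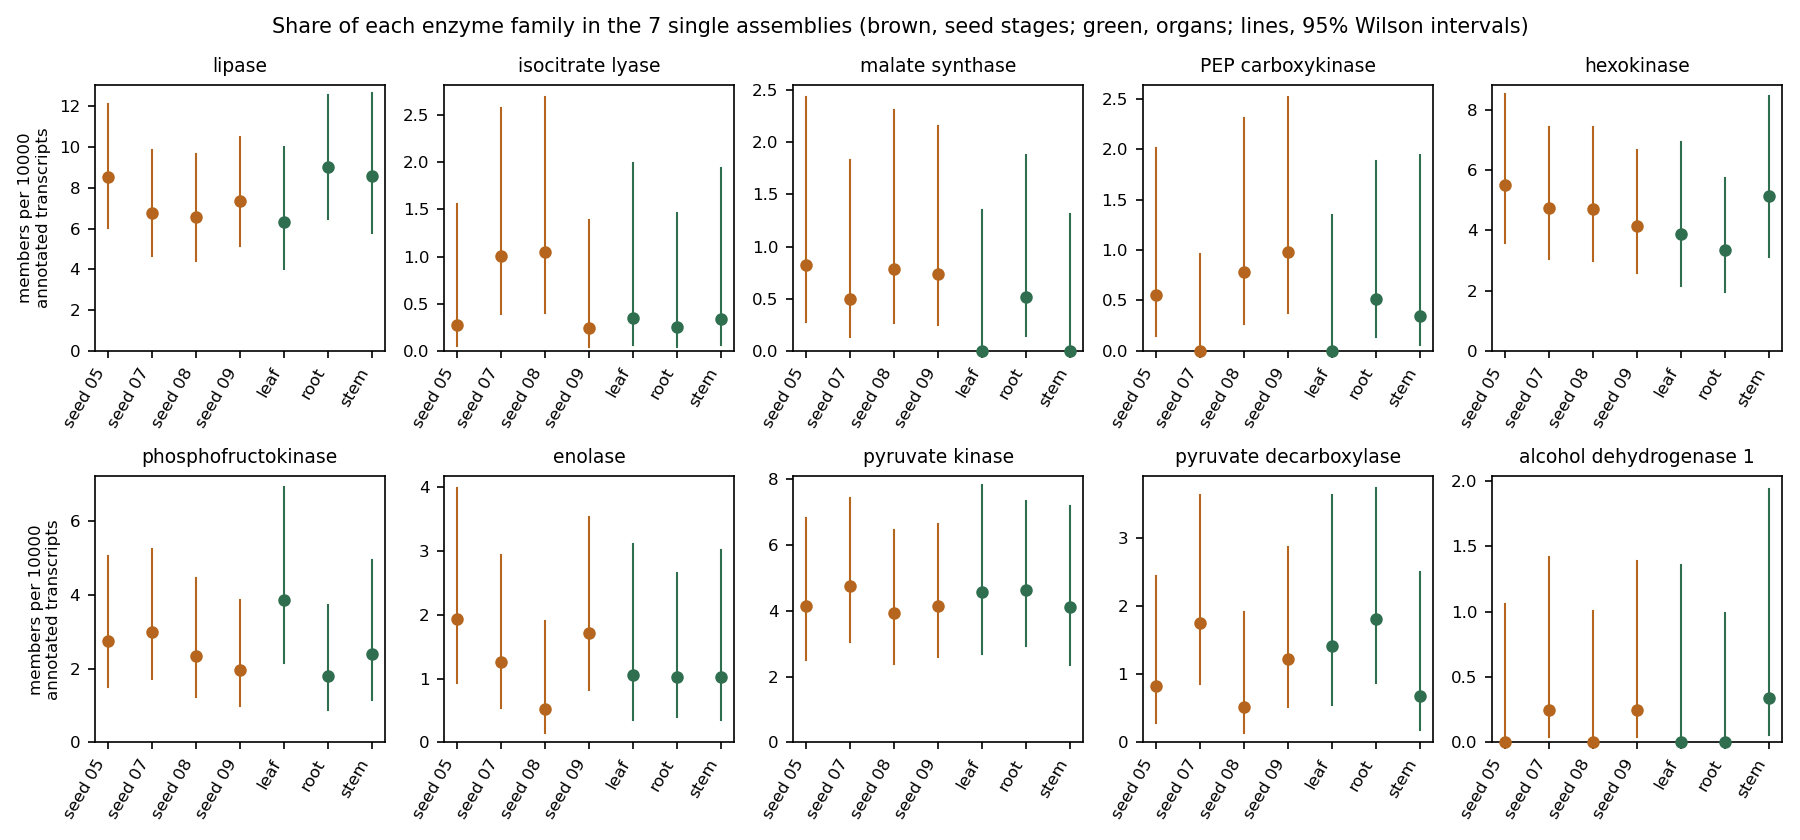
Share of each enzyme family, in members per 10000 annotated transcripts (vertical axis), in the 4 seed stages (brown) and the 3 organs (green). Points are the shares and lines their 95% Wilson intervals; within each of the 10 panels the intervals of the 7 assemblies share a common stretch, and malate synthase is at 0 in leaf and stem.

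Of the 12 descriptions of members with at least 10 transcripts, 1 had its 4 seed shares above the 3 organ shares, and 0 had them below. Among all 1504 descriptions with at least 10 transcripts, 7.45% lay above and 5.59% below in this way. The share among the members, 1 of 12 or 8.33%, was near that background. The description was malate synthase itself, by a gap smaller than the worth of 1 transcript.

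Lipases were the largest family, with 191 members under 42 accessions. The assemblies held 31, 27, 25 and 30 lipases at seed BBCH 05, 07, 08 and 09, and 18, 35 and 25 in leaf, root and stem. Root had the highest share, 9.02 per 10000 (95% interval 6.49 to 12.5), and leaf the lowest, 6.34 (4.01 to 10.0). The seed mean of 7.29 ± 0.897 (SD, n = 4 assemblies) was below the organ mean of 7.97 ± 1.43 (n = 3), with overlapping ranges and an exact permutation p of 0.514. The direction turned in peptides of at least 200 amino acids, where the seed mean was higher by 0.467.

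Most of these names do not belong to enzymes of oil bodies. GDSL esterase/lipases, a large plant family of mostly secreted esterases named after a motif at their active site, made up 99 of the 191 members. Their numbers were 18, 13, 18 and 16 in the seed stages and 7, 17 and 10 in leaf, root and stem, with a mean share of 4.21 ± 0.777 in seed stages and 3.42 ± 0.958 in organs, again overlapping. The other 92 lipases numbered 13, 14, 7 and 14 in the seed stages and 11, 18 and 15 in leaf, root and stem. Their seed shares, 1.83 to 3.58 per 10000, all lay below the organ shares of 3.87, 4.64 and 5.13, with means of 3.09 ± 0.839 against 4.55 ± 0.636. The gap between the highest seed stage, 3.58, and the lowest organ, leaf, is less than the worth of 1 leaf transcript. The lipase total sums both groups, with the GDSL members at a higher mean in seeds and the others at a lower one.

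Among single descriptions, GDSL esterase lipase with no further name had 74 transcripts, Lipase 41 and Lipase 1 had 23. All 23 transcripts of Lipase 1 matched the same oat lipase, Q672R1, with 2, 5, 4 and 4 in seeds, 5 in root, 3 in stem and 0 in leaf. These make up every match to oat among the members. Oat homologues are 3.97% of the members and 0.0496% of all annotated transcripts. EXL3, named after extracellular lipases of Arabidopsis, had 2 transcripts in each seed stage and in root, 1 in stem and 0 in leaf. CPRD49, named after a cowpea gene that responds to drying, had 1, 3, 1 and 1 in the seed stages and 0 in every organ. Lipase member N had 9 transcripts and the alpha form of Sn1-specific diacylglycerol lipase 8, spread over both classes. APG, another GDSL name, had 2 transcripts at BBCH 05, 1 in each organ and 0 at the other seed stages, and the class 3-like lipase had 4 in all. EXL1 had 1 transcript at BBCH 08 and 1 in stem. The remaining lipase names had 1 transcript each: LIP-4 at BBCH 08, a lingual lipase-like protein and the beta form of diacylglycerol lipase in leaf, Triacylglycerol lipase in root and Triacylglycerol lipase 2 in stem. The lipase accessions found in all 7 assemblies were R7W020, a GDSL esterase lipase with 10 transcripts, M8A7L9, the Lipase member N with 9, and F2D8W8 and M7YLT8, each described as Lipase with 8. All of them had 1 or 2 transcripts in every assembly, with overlapping shares.

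The lipase that opens storage fat in Arabidopsis seedlings is SDP1, which acts at the oil body surface. Its name was given to 3 transcripts, 1 at seed BBCH 05, 1 at BBCH 09 and 1 in stem, all best matched by M8AZG5. It was at 0 at BBCH 07 and 08 and in leaf and root, and at 1 transcript where it was found, its absence elsewhere was not detectable at this depth. All triacylglycerol lipase names together had 5 transcripts, 2 in seed stages and 3 in organs. Patatin-like proteins, another group of plant lipid acyl hydrolases that the name rule did not take, had 10 to 16 transcripts in every assembly.

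The searched spellings of acyl-CoA oxidase and 3-ketoacyl-CoA thiolase found 0 members in all 8 assemblies. This is a matter of spelling: the deposited descriptions write coenzyme A in full or leave the CoA out. Under the spelling Acyl-coenzyme A oxidase, searched after the data were seen, there were 2, 5, 4 and 3 transcripts in the seed stages and 2, 2 and 1 in leaf, root and stem. The enzyme code of acyl-CoA oxidase was carried by more transcripts, 5, 8, 6 and 8 in the seed stages and 4, 5 and 3 in the organs. The mean share of that code was 1.73 ± 0.303 per 10000 in seed stages and 1.24 ± 0.195 in organs, and the ranges overlapped. The peroxisomal thiolase, spelled without CoA, had 2 transcripts at BBCH 07 and 0 in the other 6 single assemblies, and 0 transcripts carried its enzyme code. Beta-oxidation was therefore present in these tables, but not under the names used to choose the members.

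Isocitrate lyase, which splits isocitrate into glyoxylate and succinate, had 13 members. There were 1, 4, 4 and 1 transcripts in the seed stages and 1 in each of leaf, root and stem. The higher numbers at BBCH 07 and 08 came from short pieces. In leaf, root and stem the 1 transcript gave a peptide of 563 amino acids, and at BBCH 05 and 09 it gave 564, all best matched by the wheat-relative protein M7ZKW3 (Triticum urartu). At BBCH 07 the same homologue was matched by peptides of 372 and 241 amino acids from 1 Trinity component, the cluster of contigs that Trinity treats as connected, and at BBCH 08 by peptides of 553 and 113 from 1 component. The other members at those stages were 99 to 127 amino acids long. Of these 4, I0YS96 at BBCH 07 and A0A087SUD9 at BBCH 08 are proteins of green algae. M7ZKW3 was thus the isocitrate lyase found in all 7 assemblies, organs included. The mean share was 0.642 ± 0.442 in seed stages and 0.317 ± 0.0519 in organs (exact permutation p = 0.514).

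Malate synthase, which joins glyoxylate to acetyl-CoA, had 13 members by the name rule. Transcripts numbered 3, 2, 3 and 3 in the seed stages, 2 in root, and 0 in both leaf and stem. Shares were 0.827, 0.501, 0.785 and 0.733 per 10000 in the seed stages and 0.515 in root. The mean was 0.711 ± 0.145 in seed stages and 0.172 ± 0.298 in organs, the ranges overlapped because root lay above BBCH 07, and the exact permutation p was 0.114. A count of 0 allows up to 1.06 per 10000 in leaf and 1.03 in stem, more than the share of any seed stage. Absence from leaf and stem was therefore not detectable at this depth.

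The rule also took 2 members that are not malate synthase. They are named 2-isopropylmalate synthase, an enzyme of leucine synthesis, and came from seed BBCH 09 and root. The description Malate synthase alone had 3, 2, 3 and 2 transcripts in seeds, 1 in root, and 0 in both leaf and stem, and here the seed shares of 0.489 to 0.827 lay above the organ shares of 0 to 0.258. The gap between the lowest seed stage, BBCH 09, and root is less than the worth of 1 transcript in either assembly. All 11 transcripts of this description carried the enzyme code of malate synthase, and no other transcript did.

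Malate synthase was assembled whole in root and in pieces in the seeds. The root transcript gave a peptide of 564 amino acids, matched by A0A0E0DFF2. The seed peptides ran from 110 to 368 amino acids. At BBCH 05, pieces of 118, 220 and 210 amino acids came from 1 component, and at BBCH 08 pieces of 204, 116 and 133 did. At BBCH 07, pieces of 368 and 110 came from 1 component, and at BBCH 09 pieces of 293 and 240 from 1 contig. Counted by component, malate synthase was at 1, 1, 1 and 2 in seeds, 2 in root, and 0 in both leaf and stem, with 1 of the 2 at BBCH 09 and in root being isopropylmalate synthase. By component each seed stage and root thus held 1 malate synthase, and leaf and stem held 0. In the paper more reads were left for the root assembly than for any seed stage. Its check with conserved single-copy genes found more of them fragmented at BBCH 07, 08 and 09 than in root, and fewer at BBCH 05. Whether read depth or RNA quality had a part in the pieces of this or any other family was not tested.

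**Figure D2:**
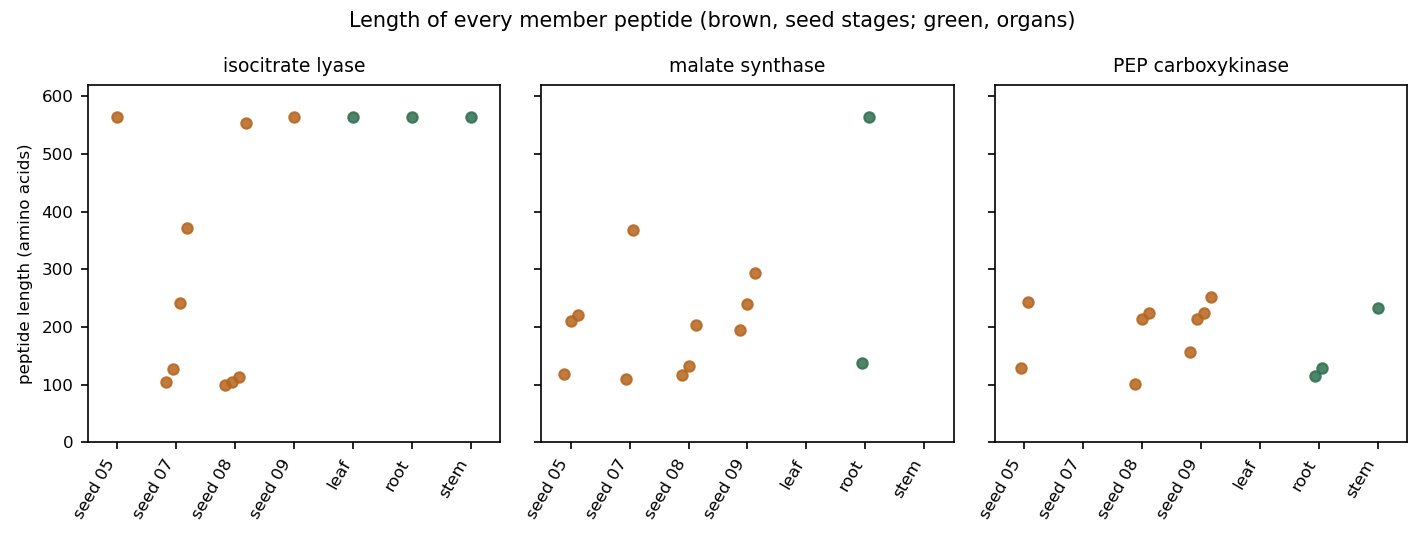
Length in amino acids (vertical axis) of every member peptide of isocitrate lyase, malate synthase and phosphoenolpyruvate carboxykinase, by assembly (brown, seed stages; green, organs). Isocitrate lyase reached 563 or 564 amino acids in 5 assemblies, while malate synthase did so in root alone (564) and was found in pieces of 110 to 368 in the seed stages.

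Phosphoenolpyruvate carboxykinase, which makes phosphoenolpyruvate from oxaloacetate at the start of gluconeogenesis, had 12 members, all matched by the goatgrass (Aegilops tauschii) protein M8AZR2. There were 2, 0, 3 and 4 in the seed stages and 0, 2 and 1 in leaf, root and stem. Every peptide was a piece of 101 to 252 amino acids, and the 3 at BBCH 08 came from 1 component. The mean share of 0.578 ± 0.423 in seed stages and 0.286 ± 0.262 in organs gave an exact permutation p of 0.343. By component the order turned, with a seed-minus-organ difference of -0.0339. Its enzyme code was on 34 transcripts, of which 24 were not members and 23 of those were named Uncharacterized protein. By code there were 5, 3, 7 and 4 in the seed stages and 4, 7 and 4 in the organs, so BBCH 07 and leaf, at 0 by name, held 3 and 4. The mean share by code was 1.23 ± 0.475 in seed stages and 1.53 ± 0.241 in organs, the opposite order to that by name, with overlapping ranges in both.

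Hexokinase, which adds a phosphate to glucose and so lets it enter glycolysis, had 113 members under 16 accessions. Transcripts numbered 20, 19, 18 and 17 in the seed stages and 11, 13 and 15 in leaf, root and stem, and every seed number lay above every organ number. As shares the ranges overlapped, with 5.51, 4.76, 4.71 and 4.16 per 10000 at the seed stages against 3.87, 3.35 and 5.13 for leaf, root and stem. The mean was 4.78 ± 0.557 in seed stages and 4.12 ± 0.917 in organs (exact permutation p = 0.343). Without stem the seed shares lay above the other organs.

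The seed hexokinases had more pieces per component. They fell into 11, 9, 11 and 10 components and those of leaf, root and stem into 10, 10 and 12. Per 10000 components that held an annotated transcript, the seed mean was lower than the organ mean by 0.775. Over all families the 579 members fell into 453 components, of which 92 held more than 1 member and none more than 4. Median peptide length of hexokinase was 220 amino acids in seed stages and 251 in organs.

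**Figure D3:**
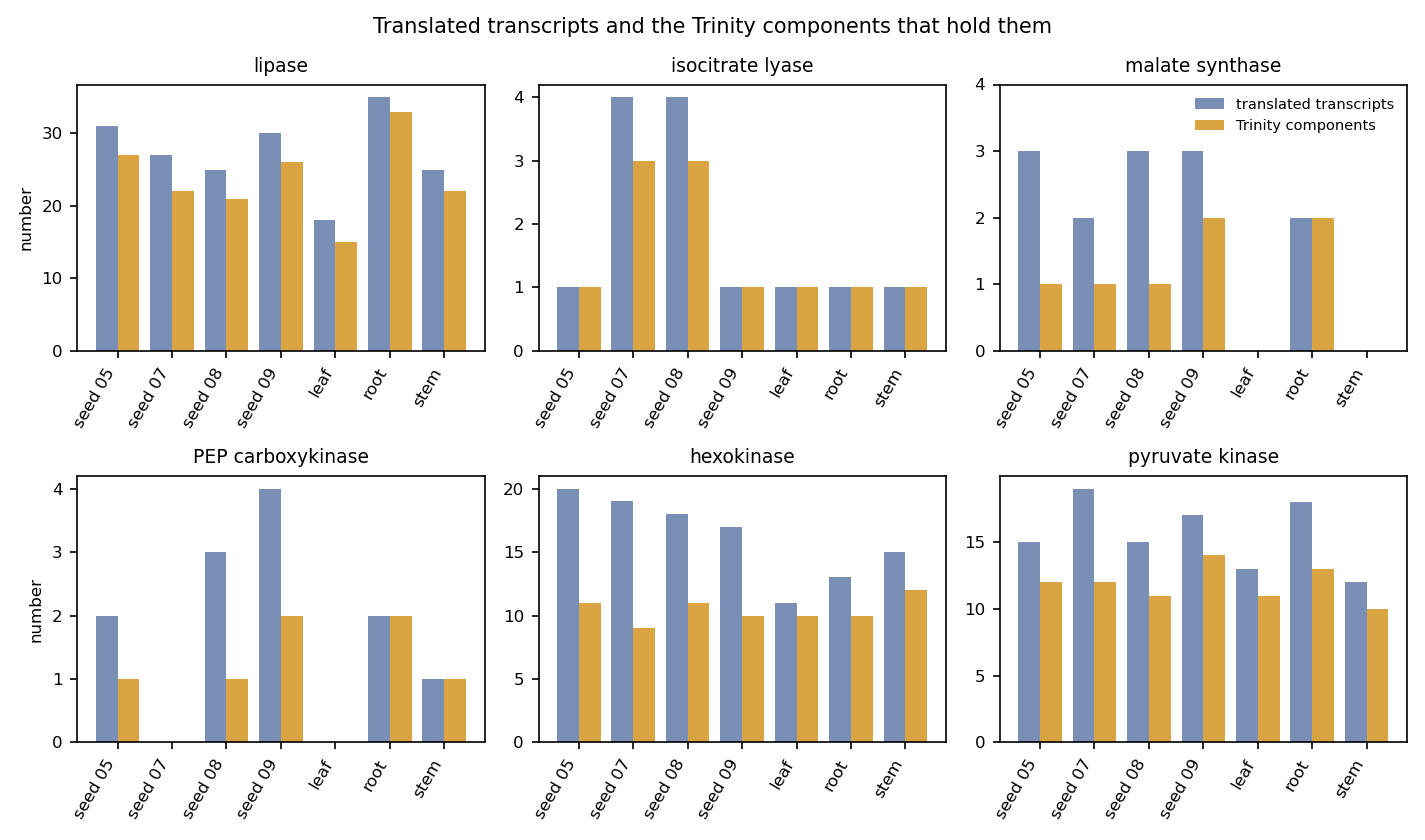
Number (vertical axis, bars from 0) of translated transcripts and of the Trinity components that hold them, for 6 families in each single assembly. Hexokinase had 17 to 20 transcripts in the seed stages against 11 to 15 in the organs, but 9 to 11 components against 10 to 12, and the 2 or 3 malate synthase transcripts at seed BBCH 05, 07 and 08 lay in 1 component each.

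Ketohexokinase, which phosphorylates fructose in animals and whose name contains the searched word, accounted for 9 of the hexokinase members, with 1 in each seed stage and in leaf and 2 in root and stem. All 9 matched M7Z366. The wheat hexokinase A0A077RTR0 had the most transcripts, 4, 5, 3 and 4 in the seed stages and 1, 3 and 2 in leaf, root and stem. The barley hexokinase M0UN40 had 3 in each seed stage and 2 in each organ. The seed shares of both lay above their organ shares, in each case by a gap smaller than the worth of 1 transcript (A0A077RTR0 0.785 at BBCH 08 against 0.773 in root, M0UN40 0.733 at BBCH 09 against 0.704 in leaf). I1HV37 had 12 transcripts and W5A9J3 had 12, also in all 7 assemblies with overlapping ranges. A0A0E0DU68 had 1 transcript in every assembly.

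Phosphofructokinase, which makes the first step that is particular to glycolysis, had 64 members, of which 58 were named ATP-dependent 6-phosphofructokinase. There were 10, 12, 9 and 8 in the seed stages and 11, 7 and 7 in leaf, root and stem. Leaf had the highest share, 3.87 per 10000, and root the lowest, 1.80. The means were 2.52 ± 0.461 in seed stages and 2.69 ± 1.07 in organs (exact permutation p = 0.857). Without leaf the order turned, with the seed mean higher by 0.418. M7YML2 had 4, 3, 2 and 1 transcripts in the seed stages and 1, 2 and 1 in the organs, while A0A0E0B2Y3, W5F5Z1 and K3XVV8 had 1 to 3 in every assembly. The name 6-phosphofructokinase 2 was given to 4 transcripts, 1 at BBCH 08, 2 in leaf and 1 in root. The other 2 members were named as fragments, 1 at BBCH 08 and 1 at BBCH 09. The enzyme code was carried by 145 transcripts, 81 of them uncharacterized by name, at 18 to 26 per assembly with no gap between seed stages and organs.

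Enolase, which makes phosphoenolpyruvate in glycolysis, had 31 members by name, but 21 of them were enolase-phosphatase E1, an enzyme of methionine salvage, 1 of these under the name of a bifunctional dehydratase with it, at BBCH 07. The family had 7, 5, 2 and 7 transcripts in the seed stages and 3, 4 and 3 in leaf, root and stem. Shares were 1.93, 1.25, 0.523 and 1.71 in the seed stages and 1.03 to 1.06 in the organs, so only BBCH 08 kept the ranges from separating. Without the phosphatase the numbers were 2, 1, 0 and 5 in the seed stages and 0, 1 and 1 in the organs. Of these, 3 at BBCH 09 were described as Enolase (Fragment). Most transcripts with the enzyme code of enolase had no enzyme name: of 52, 9 were members and 40 were named Uncharacterized protein. By code there were 8, 7, 8 and 11 in the seed stages and 4, 8 and 6 in the organs, and the mean share was 2.18 ± 0.387 against 1.84 ± 0.375. A single uncharacterized protein, A0A0E0QWR1, matched 22 of the 43 transcripts that only the code found and was present in all 7 assemblies. The name thus missed most of the glycolytic enolase. Enolase-phosphatase M8CBY5, with 3, 3, 1 and 1 transcripts in the seed stages and 2, 2 and 1 in the organs, was the one member of this family in all 7.

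Pyruvate kinase, the last step of glycolysis, had 109 members under 22 accessions. Transcripts numbered 15, 19, 15 and 17 in the seed stages and 13, 18 and 12 in leaf, root and stem. Shares lay between 3.92 and 4.76 in seed stages and between 4.11 and 4.64 in organs, with means of 4.24 ± 0.359 and 4.44 ± 0.291 (exact permutation p = 0.629). Names and codes matched closely here, since 105 of the 109 members carried the enzyme code and only 1 other transcript did. In all 7 assemblies 8 of its 22 accessions were matched (36.4%), against 6 of 16 for hexokinase (37.5%). K7TPR9 of maize had 3, 3, 3 and 4 transcripts in the seed stages and 1, 2 and 1 in the organs, with seed shares above organ shares. M7ZDG8 had 1 in every seed stage and 2 in every organ, with seed shares below. F2EHK2, the homologue described as Pyruvate kinase (Fragment), had 9 transcripts and K3Y5R7 had 8. A0A0E0HXE6, M7ZII9, M7ZJ48 and M8B0G6 had exactly 1 transcript in each assembly. A0A0D9Y6Q7 had 1 in each seed stage and 0 in each organ. The name phosphoenolpyruvate kinase was given to 1 transcript, in stem. So the family shares overlapped, while K7TPR9 and M7ZDG8 separated in opposite directions. Both gaps were smaller than the worth of 1 root transcript. K7TPR9 had 0.751 at BBCH 07 against 0.515 in root, and M7ZDG8 had 0.276 at BBCH 05 against 0.515 in root.

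Pyruvate decarboxylase, the first enzyme of ethanol fermentation, had 30 members. There were 3, 7, 2 and 5 in the seed stages and 4, 7 and 2 in leaf, root and stem, with mean shares of 1.08 ± 0.532 and 1.30 ± 0.568 (exact permutation p = 0.571). Without root the order turned, with the seed mean higher by 0.0352. Its homologues were not spread alike. M7ZMZ7, an isozyme 2, had 2, 5, 1 and 4 transcripts in seeds, 3 in root, 1 in stem and 0 in leaf. The maize protein K7UYP7, described as Pyruvate decarboxylase2, had 3 in leaf and 2 in root, and 0 in stem and every seed stage. The name Pyruvate decarboxylase with no isozyme was given to 1 transcript, at BBCH 07. R7WF00 had 1 transcript in every assembly but stem, of at most 142 amino acids. The longest peptide, 568 amino acids, came from BBCH 09, while leaf and stem reached 224. The members carried 0 enzyme codes of pyruvate decarboxylase.

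Alcohol dehydrogenase 1, the usual ethanol-forming enzyme of flooded grasses, was named for 3 transcripts only. Those at BBCH 07 and 09 were fragments of 126 and 101 amino acids that carried the enzyme code of ribonuclease P, and the third, in stem, was cinnamyl alcohol dehydrogenase 1, an enzyme of lignin synthesis. Other alcohol dehydrogenase names had 111 transcripts, with mean shares of 4.25 ± 0.559 in seed stages and 4.77 ± 1.36 in organs. Within them, alcohol dehydrogenase 3, singled out after its values were seen, had 4, 5, 4 and 4 transcripts in the seed stages and 1, 2 and 1 in the organs, and its seed shares of 0.978 to 1.25 lay above the organ shares of 0.342 to 0.515.

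Of the 120 accessions, 24 were matched in all 7 assemblies, or 20% of them, against 15.8% of the 57115 accessions of all annotated transcripts. Accessions found in seed stages only made up 26.7% of the members and 30.7% of all, and accessions found in organs only 20.8% and 16.8%. In all 4 seed stages and in no organ were 4 accessions (3.33%, against 1.34% of all), namely the lipases M8CRR5 (CPRD49), M7ZFA7 (EXL3) and M8BQ90 (a GDSL esterase lipase) and the pyruvate kinase A0A0D9Y6Q7. All but M8CRR5 rested on 1 transcript per seed stage. Their seed shares were at most 0.751 per 10000, while a count of 0 allows up to 1.06 in leaf, 0.773 in root and 1.03 in stem. Absence from the organs was therefore not detectable at this depth. In all 3 organs and in no seed stage were 0, against 0.564% of all. Of 19 member accessions with at least 10 transcripts, 3 had seed shares above the organ shares (15.8%) and 1 below (5.26%), where 8.77% and 4.21% of the 5724 accessions with at least 10 transcripts did so. The 3 were the hexokinases A0A077RTR0 and M0UN40 and the pyruvate kinase K7TPR9, and the 1 was the pyruvate kinase M7ZDG8. With 19 accessions these are differences of 1 or 2 homologues from the background.

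**Figure D4:**
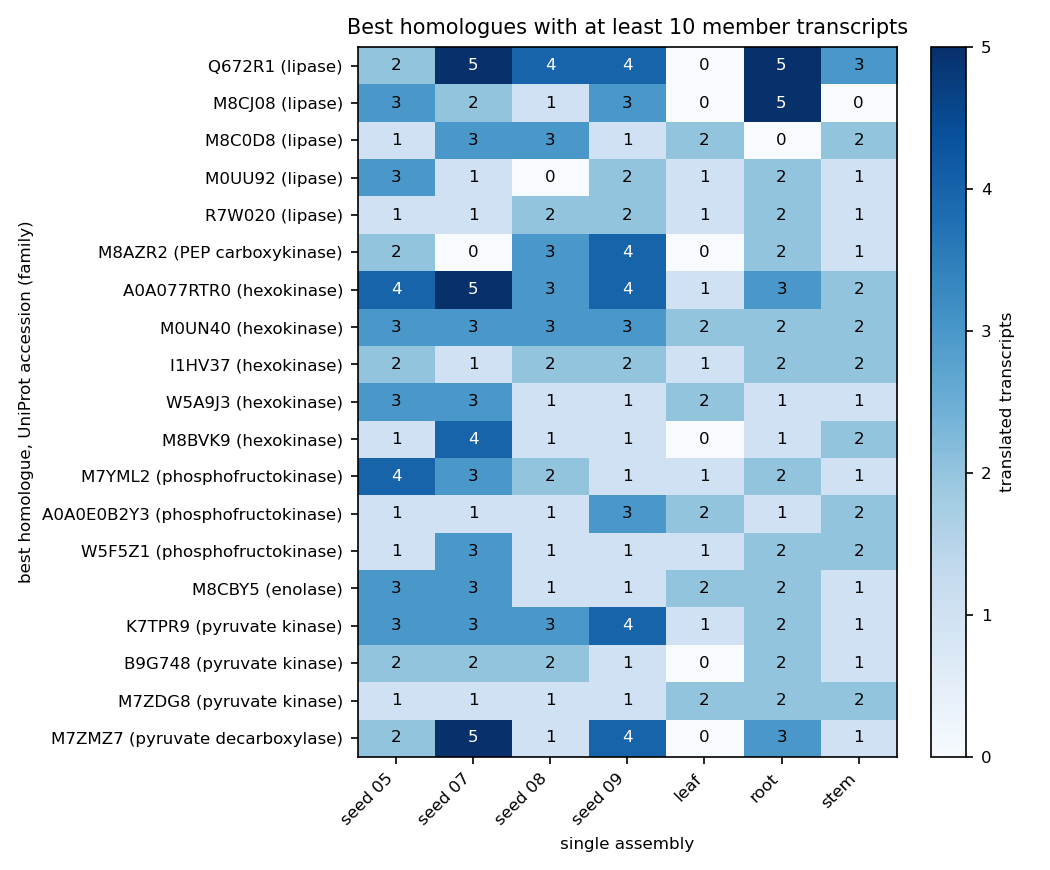
Number of translated transcripts (colour and printed number) of the 19 member homologues with at least 10 transcripts (rows, UniProt accession and family) in the 7 single assemblies (columns). Q672R1, the oat lipase, had 5 at seed BBCH 07 and in root and 0 in leaf, and K7TPR9 had 3 or 4 in the seed stages and 1 or 2 in the organs.

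Enzyme codes and GO terms, which the name rule did not use, were assigned to the same transcripts from their homologue matches and are not an independent count. Of the 10 codes of these families with at least 10 transcripts, 1 had seed shares above the organ shares and 0 below. Among all 494 codes, 6.68% lay above and 3.64% below. The 1 code was that of malate synthase, on the same 11 transcripts as the description Malate synthase. Of 22 GO terms of these pathways with at least 10 transcripts, chosen with the data known, 4 lay above and 2 below, where 4.33% of 3049 terms lay above and 4.92% below. Those above were glyoxylate cycle, malate synthase activity, phosphopyruvate hydratase activity (enolase) and monolayer-surrounded lipid storage body, the oil body. Malate synthase activity was again on the same 11 transcripts, so it repeats the result of the description. For phosphopyruvate hydratase activity the lowest seed share, 2.09 at BBCH 08, and the highest organ share, 2.06 in root, rested on 8 transcripts each, and the enzyme code of enolase overlapped. Those below were gluconeogenesis and lipid catabolic process. Lipid catabolic process was on 35 to 38 transcripts in seed stages and 36 to 41 in organs, with mean shares of 9.42 ± 0.656 and 11.9 ± 1.13 per 10000. Gluconeogenesis was on 39 to 48 and 38 to 51 transcripts, with mean shares of 11.3 ± 1.37 and 13.8 ± 1.19. Its highest seed share, 12.95, and its lowest organ share, 13.00, lay closer than the worth of 1 transcript.

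The term glyoxylate cycle was on 5, 6, 5 and 7 transcripts in the seed stages and on 2, 4 and 1 in leaf, root and stem. Its mean share was 1.47 ± 0.177 per 10000 in seed stages and 0.692 ± 0.344 in organs. Of its 30 transcripts 11 were the malate synthases and 19 were named Uncharacterized protein. No isocitrate lyase of a single assembly carried it, although 6 of the 7 in the combined assembly did, some with the same homologue M7ZKW3. In the single assemblies 10 of the 13 isocitrate lyases carried the term seed dormancy process instead. Terms were therefore not compared between the single and the combined assembly. The oil body term was on 5, 5, 4 and 6 transcripts in seeds, on 3 in root and on 0 in both leaf and stem. Fatty acid beta-oxidation was on 54 to 75 transcripts in seed stages and 44 to 60 in organs, and its mean shares of 16.7 ± 1.92 and 16.6 ± 2.38 were almost equal. Glycolytic process was on 116 to 124 and 85 to 99 transcripts, with shares of 30.8 ± 1.57 and 29.8 ± 4.71 that overlapped.

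Neighbouring steps of the pathways were counted by 37 further names, of which 14 found 0 transcripts, several for the spelling reason given for CoA. Of the 19 names with at least 10 transcripts, 2 had seed shares above the organ shares and 0 below, or 10.5% and 0%. Among all descriptions 7.45% and 5.59% did so, and 2 of 19 is near that background. Triosephosphate isomerase, which links the 2 three-carbon sugars of glycolysis, had 6, 6, 10 and 9 transcripts in the seed stages and 4, 3 and 3 in the organs, with mean shares of 1.99 ± 0.512 and 1.07 ± 0.320. Its lowest seed share and its highest organ share, 1.41 in leaf, lay closer than the worth of 1 transcript, and at an e-value limit of 1e-10 its ranges overlapped. Oleosin had 3 in every seed stage, 2 in root, and 0 in both leaf and stem. Its lowest seed share, 0.733 at BBCH 09, and its share in root, 0.515, also lay closer than the worth of 1 transcript. Caleosin, with 3, 2, 3 and 3 in the seed stages and 0, 2 and 0 in leaf, root and stem, had the same numbers by assembly as the malate synthase family. Root was the one organ with malate synthase, oleosin and caleosin, and it also had the most annotated transcripts of the organs, 38809 against 28412 in leaf and 29223 in stem.

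In glycolysis, 7 of 9 names had at least 10 transcripts and 1 of these separated. Aldolase had its highest share in leaf, 5.63 per 10000 from 16 transcripts, against 3.03 to 4.26 in the seed stages, where BBCH 07 had the highest number, 17. In the glyoxylate and citric acid cycle 0 of 5 separated. Malate dehydrogenase had 5, 8, 13 and 12 transcripts in the seed stages and 4, 8 and 4 in the organs, and citrate synthase had 8 to 12 and 5 to 11. Names with peroxisome had shares of 2.62 to 5.76 in seed stages and 4.45 to 5.28 in organs. Phosphate dikinase, which makes phosphoenolpyruvate from pyruvate and was found under another spelling after the data were seen, had 2, 3, 3 and 3 transcripts in the seed stages and 1 in each organ. Acyl-CoA synthetases, which activate fatty acids, were also searched without CoA after the data were seen. They had 12 to 15 transcripts in seed stages and 14 to 18 in organs. Their seed shares of 3.31 to 3.92 lay below the organ shares of 4.64 to 5.28. The 4-coumarate ligases, added likewise, had seed shares of 0.551 to 1.22 above organ shares of 0 to 0.515. Names of acyl-CoA dehydrogenase, acyl-CoA binding and aconitate, also added then, overlapped. These added names are not among the 19, and no background was set beside them. Phospholipases, left out of the members, had 173 transcripts with overlapping shares.

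**Figure D5:**
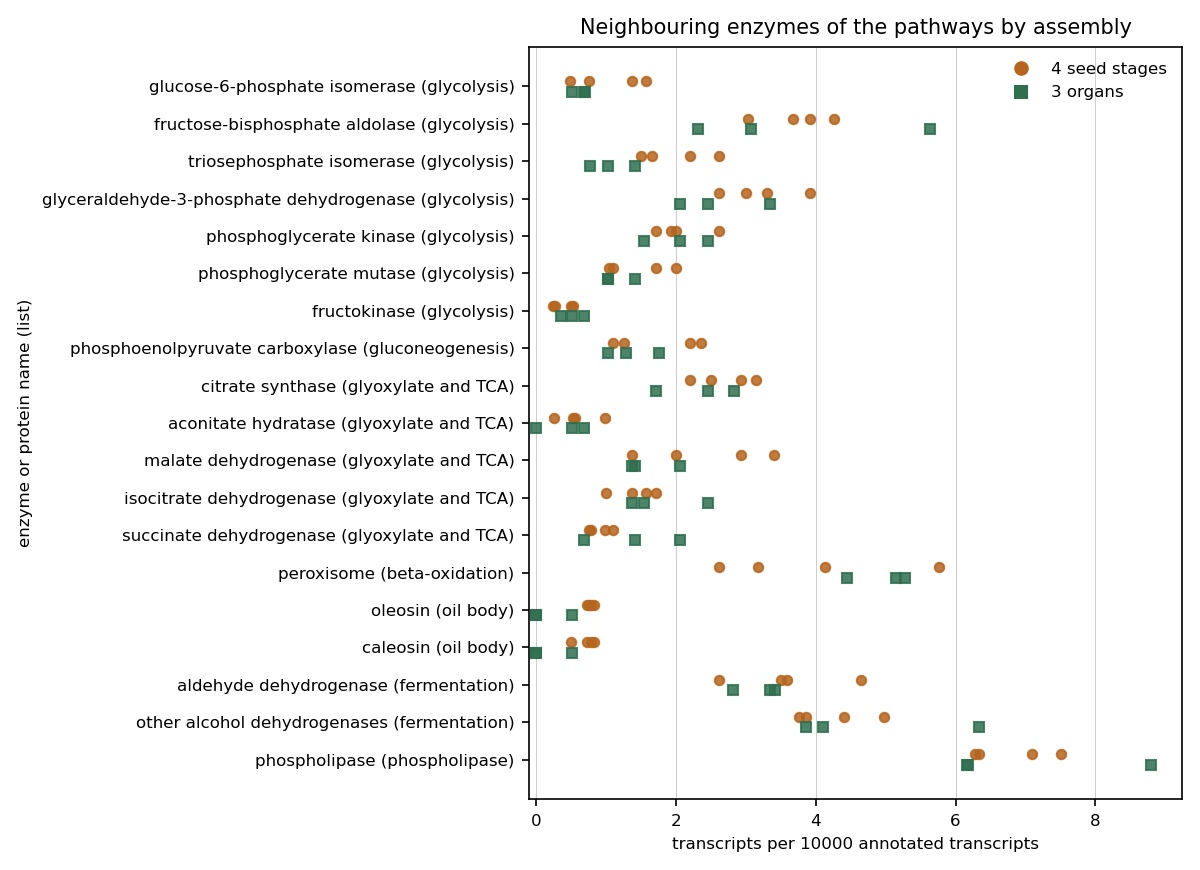
Transcripts per 10000 annotated transcripts (horizontal axis) for the 19 neighbouring names with at least 10 transcripts, in the 4 seed stages (brown circles) and 3 organs (green squares). Triosephosphate isomerase and oleosin are the 2 rows whose circles all lie to the right of the squares. For both the gap is under 1 transcript, and for the isomerase it is lost at an e-value limit of 1e-10.

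Tissue markers were counted in the same way, and oleosin is both a seed marker and a neighbouring name above. Of 4 seed markers, oleosin, globulin and alpha-amylase had seed shares above the organ shares, with 9 to 17 globulin and 10 to 16 alpha-amylase transcripts in the seed stages. Leaf, root and stem held 4, 7 and 3 globulins and 5, 9 and 3 alpha-amylases, so root was the highest organ for each. Late embryogenesis abundant proteins overlapped. Of 3 leaf markers, the RuBisCO small chain was below all organs in seed stages, chlorophyll a-b binding proteins had 28 transcripts in leaf and 14 to 22 in the other assemblies, and photosystem names had 18 in leaf and 9 to 16. Of 3 root markers, nitrate transporters had 11 in root and 2 to 4 elsewhere, nicotianamine names did not single out root, and casparian strip names were at 0 in all. The stem markers cellulose synthase and laccase were not highest in number in stem. The part of tissue makeup in the shares of malate synthase and of the other members was not tested.

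Homologues in green algae, which are not grasses, were 0, 1, 1 and 3 of the members in the seed stages and 0, 2 and 0 in leaf, root and stem, among 34 to 495 such transcripts per assembly. Among the members of root they were 1 enolase and 1 triacylglycerol lipase, and at BBCH 09 they were 1 enolase and 2 pyruvate kinases. Without them and all other green-algal matches the seed-minus-organ difference went from 0.325 to 0.198 per 10000 for isocitrate lyase and from -0.197 to -0.319 for pyruvate kinase. The other families moved less, and no family moved by more than its spread within seed stages and organs.

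Members had longer and closer matches than the tables as a whole. Their median peptide was 214 amino acids in seed stages (of 362) and 234 in organs (of 217), against 186 and 208 for all annotated transcripts, and the median similarity was 92% against 86%. The match had an e-value of 0 for 192 members, and 4 members had one above 1e-10. Goatgrass gave the best homologue of 28.8% of the members and of 14.5% of all annotated transcripts, and Triticum urartu of 21.1% and 12.1%. Brachypodium distachyon gave 2.07% and 10.9%. The name rule left out homologues described as Uncharacterized protein, which stay among all annotated transcripts. The part of this in these differences was not tested.

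The combined assembly held 93 of the accessions that the members have, 82 of them also found in a single assembly. It held 61 lipases and 7 isocitrate lyases, but 0 alcohol dehydrogenase 1 and 1 phosphoenolpyruvate carboxykinase, where the single assemblies together had 3 and 12. Its members had a median length of 185 amino acids. The longest isocitrate lyase there was 472 amino acids and the longest malate synthase family member 194, shorter than the 564 reached in a single assembly by each.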

How the data were processed

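RNA of 4 seed stages and 3 organs was pooled within each condition, sequenced, and deposited as 1 sample per condition. The authors trimmed reads with Trimmomatic (named by the submitters' processing notes, its version not given in the sources used here), normalized read depth, assembled each library and all libraries together with Trinity, kept the longest isoform, merged like contigs, translated open reading frames and annotated the peptides with blastp and Blast2GO. Depth of sequencing is not in the tables. The authors deposited an e-value, a score of the best match, for each peptide, and mean similarity is a percent deposited by the authors; peptide length is in amino acids. There were 0 columns without a sample.

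Words in the description, with an e-value up to 0.1, set the members. The members, lists and tests were chosen with earlier results of these data known. Shares are per 10000 annotated transcripts with 95% Wilson intervals, and a count of 0 allows 3 transcripts. Features needed at least 10 transcripts over the 7 single assemblies to be called above or below. The exact permutation test was two-sided over 35 splits, and it was checked on a made-up set of fixed values. The call of above or below was tested on simulated counts. In these the descriptions with most transcripts were changed by a known factor. The text names every family, its descriptions with most transcripts (6, or 12 for lipase), separated descriptions, and accessions found in all 7 assemblies, in all 4 seed stages alone or in all 3 organs alone (up to 8 a family); any other accession or name was picked with its values in view. As alternatives, e-values were limited to 1e-05 and to 1e-10, and values were recomputed with 1 transcript per Trinity gene, distinct accessions, all translated transcripts as denominator, peptides of at least 200 amino acids, least numbers of 5 and 20, transcript numbers in place of shares, narrower words and leaving out each assembly. Trinity components, leaving out green algae, isopropylmalate synthase or ketohexokinase were added after seeing the data. No reference genome or sequences were used here. Scripts ran under Python 3.11.15 with pandas 2.3.3, NumPy 2.4.6, SciPy 1.17.1 and, for figures, matplotlib 3.10.9.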

Additional observations from a re-analysis of the deposited data

How the results depend on the processing

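Of 154 values of the family differences under another setting, 152 stayed within 1 SD of the spread within seed stages and organs and 13 changed sign, all of differences whose ranges overlap. Counting 1 transcript per Trinity component moved 2: malate synthase from 0.540 to 0.200 per 10000 (seed minus organ), and hexokinase from 0.666 to -0.775, a change of sign. The sign also changed for lipase (0.467) and phosphofructokinase (0.0656) in peptides of at least 200 amino acids, for pyruvate kinase by Trinity gene (0.0318), and for phosphofructokinase (0.176) and phosphoenolpyruvate carboxykinase (-0.0339) by component. The other changes of sign came from leaving out 1 assembly.

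Leaving out each assembly in turn gave seed-minus-organ differences from -1.49 to -0.150 for lipase, 0.190 to 0.457 for isocitrate lyase, 0.454 to 0.711 for malate synthase, 0.125 to 0.593 for enolase, 0.281 to 1.17 for hexokinase, -0.616 to 0.418 for phosphofructokinase, -0.369 to -0.0906 for pyruvate kinase, -0.524 to 0.0352 for pyruvate decarboxylase, -0.0474 to 0.124 for alcohol dehydrogenase 1 and 0.150 to 0.485 for phosphoenolpyruvate carboxykinase. Ranges came apart for malate synthase without seed BBCH 07 or without root, for lipase without leaf (seeds lower), for enolase without seed BBCH 08, for hexokinase without stem and for phosphoenolpyruvate carboxykinase without seed BBCH 07.

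Malate synthase also separated, with seeds higher, as distinct accessions, over all translated transcripts, in peptides of at least 200 amino acids and without isopropylmalate synthase, and lipase without GDSL separated with seeds lower. Separated member descriptions numbered 1 with at least 10 transcripts, 3 with at least 5 (adding CPRD49 and ketohexokinase), 0 with at least 20 and 2 by number of transcripts (adding hexokinase). Descriptions found in all 7 assemblies numbered 11, against 24 accessions. At an e-value limit of 1e-10, 1 of the 2 neighbouring names still separated (oleosin, not triosephosphate isomerase). The cause of these moves was not tested. With 1 assembly per condition and families of 3 to 191 transcripts, depth limits every comparison. No paired analysis was possible because each condition has 1 assembly.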
